A study of Homo sapiens with 6 samples.

Results

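The polyamine genes ODC1, SRM, SMS, AMD1, SAT1, OAZ1, OAZ2, AZIN1, MTAP and SMOX were followed through RNA sequencing of CUTLL1 cells, a human line of T-cell acute lymphoblastic leukaemia (T-ALL). They were chosen by name, and all 10 were found among the 50868 genes of the deposited count table. One group of cultures carried a lentiviral short hairpin RNA (shRNA) against AURKB, the gene for the mitotic kinase Aurora B, and is called shAURKB. The other carried a control shRNA named for GFP and is called shGFP. Each group held 3 libraries, stated to come from biological replicates. Both groups shared the cell line, lentiviral infection, puromycin selection and RNA harvest at 48 h. Neither the sequence nor the number of AURKB hairpins is given in the sources used here, so effects of a hairpin on other transcripts cannot be told apart from those of lower AURKB.

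Polyamines are small positively charged molecules that bind nucleic acids and are needed for translation and proliferation. Ornithine decarboxylase (ODC1) makes putrescine from ornithine. Spermidine synthase (SRM) and spermine synthase (SMS) then add aminopropyl groups that come from S-adenosylmethionine after its decarboxylation by AMD1. Antizymes, made from the OAZ genes by a polyamine-dependent ribosomal frameshift, bind the decarboxylase and send it to the proteasome, while the antizyme inhibitor AZIN1 binds antizyme in its place. The acetyltransferase SAT1 and the oxidase SMOX run the chain backwards, and MTAP recycles the methylthioadenosine released by both synthases. ODC1 and SRM are classic targets of the transcription factor MYC, the subject of the series title. Protein, enzyme activity and polyamine content were not measured, and the antizymes in particular are controlled after transcription.

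Library totals ran from 10154187 to 11922979 counts. AURKB itself was at 39.8, 43.9 and 36.0 CPM (counts scaled to a common library size by TMM) in shAURKB libraries, against 100.4, 97.0 and 107 CPM in shGFP libraries, a log2 fold change of -1.35 ± 0.08 (SE; edgeR quasi-likelihood test, adjusted p = 0.000254). Of 14818 genes tested, 1847 were higher and 1609 lower in shAURKB, a split of calls with 53.4% on the higher side (38.8% under upper-quartile scaling). Markers of T-cell leukaemia summed to 2871 to 3009 CPM in shAURKB and 2393 to 2542 CPM in shGFP, so by level the label was borne out in both groups. Of the 8 listed, 7 were tested. Of these 7, 4 were called higher (12.5% of all genes were) and none lower (10.9% of all genes were). The 4 B-cell markers summed to 16.2 to 20.0 CPM in shAURKB and 20.4 to 22.2 CPM in shGFP, with MS4A1 and PAX5 at 0 in every library. All 4 erythroid markers were at 0 in every library, and the 4 myeloid markers summed to at most 0.293 CPM in shAURKB and 0.578 CPM in shGFP, with LYZ and MPO at 0. Markers of fibroblasts summed to at most 0.388 CPM in 5 libraries and to 17.6 CPM in shGFP replicate 1, and those of epithelia to at most 1.07 and to 9.15 CPM. Fibroblast markers COL3A1 and DCN were at 0 in every library. Without shGFP replicate 1, each of the 10 polyamine genes but SMOX kept its direction. MYC mRNA was at 16.5, 7.90 and 13.3 CPM in shAURKB and 12.5, 10.2 and 12.1 CPM in shGFP, which overlap (log2 fold change 0.12, 95% interval -0.48 to 0.71, edgeR adjusted p = 0.778). In bulk RNA, fewer cells of a kind and less RNA per cell cannot be told apart.

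All 10 genes passed the low-count filter. In shAURKB, 3 of the 10 were called higher (ODC1, SRM and OAZ1), where 12.5% of all tested genes were, and 1 was called lower (SAT1), where 10.9% were. Counted in either direction, 4 of 10 stand beside 23.3% of all genes. Their CPM values did not overlap between groups in 8 of 10 genes, where 42.6% of all tested genes had no overlap. Of these 8, 6 lay above (21.7% of all genes) and 2 below (20.9% of all genes). The median log2 fold change over the 10 was 0.11, where that of all tested genes was -0.00. Genes of at least 10 CPM on average, which include all of the 10 but SMOX, had a median of 0.0432. The calls therefore lay in the committing enzyme, the first synthase, the main antizyme and the acetyltransferase, and none lay in AMD1, SMS, OAZ2, AZIN1, MTAP or SMOX.

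**Figure D1:**
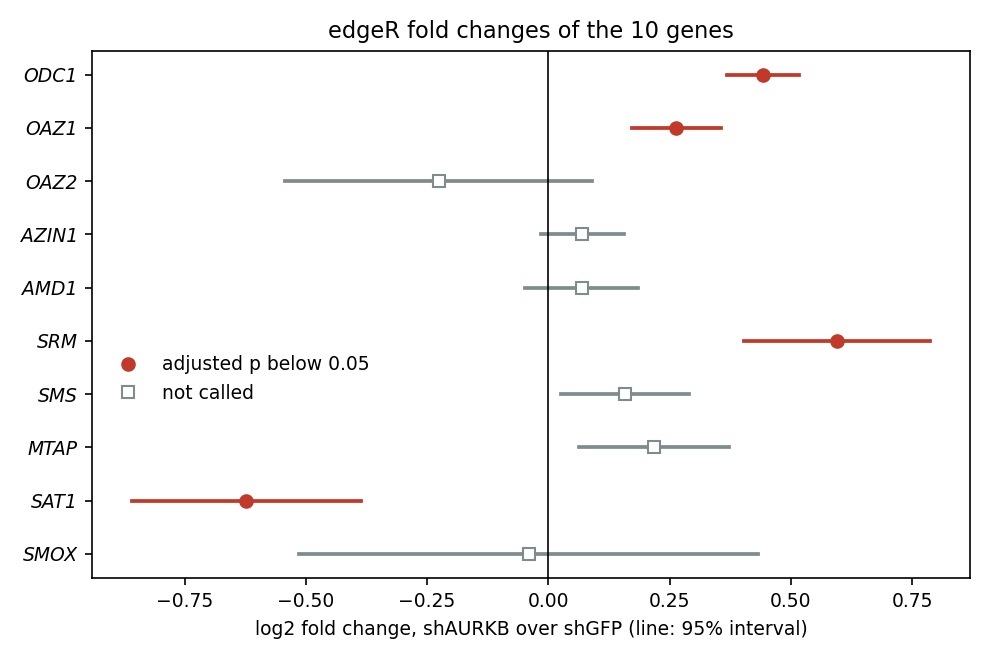
Log2 fold change of shAURKB over shGFP for each of the 10 genes, with its 95% interval from the edgeR fit over 3 libraries per group. Filled circles mark adjusted p below 0.05 (ODC1, OAZ1 and SRM to the right of 0, SAT1 to the left), and open squares mark genes that were not called.

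Sequences near the start sites are shown for the 4 called genes, since ODC1 and SRM are known MYC targets and MYC with its partner MAX binds the E-box CACGTG. They come from RefSeq (GRCh38.p14), each on the gene's own strand, with capitals marking CACGTG, a palindrome that reads alike on both strands. The ODC1 stretch (chr2:10447998-10448112, minus strand) runs from 100 bases before to 15 bases after the second RefSeq start site, and in GENCODE 29 it lies in intronic sequence, 9 bases from the nearest exon of the gene. Start sites count as base 1, with base -1 before them. The SRM stretch (chr1:11060169-11060268, minus strand) covers bases -250 to -151 from the start site, upstream of the gene. Those of OAZ1 (chr19:2269386-2269485, plus strand) and SAT1 (chrX:23783073-23783172, plus strand) cover bases -100 to -1. The ODC1 and SRM stretches were placed where CACGTG lies, so the printed stretches are not a like-for-like contrast between genes. The OAZ1 stretch also overlaps an exon of JSRP1 on the other strand.
ODC1: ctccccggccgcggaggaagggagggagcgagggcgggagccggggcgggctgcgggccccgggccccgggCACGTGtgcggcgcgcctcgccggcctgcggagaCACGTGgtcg
SRM: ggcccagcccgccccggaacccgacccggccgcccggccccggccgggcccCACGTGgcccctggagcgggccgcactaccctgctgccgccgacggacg
OAZ1: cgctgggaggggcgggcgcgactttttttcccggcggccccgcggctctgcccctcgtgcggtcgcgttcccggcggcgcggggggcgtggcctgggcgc
SAT1: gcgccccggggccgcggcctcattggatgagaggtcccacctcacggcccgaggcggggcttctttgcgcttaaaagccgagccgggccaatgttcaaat

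Within the RefSeq windows, which run from 250 bases before to 50 bases after a start site, 8 of the 10 genes had an entry, with 11 windows in all. ODC1 held 2 copies of CACGTG, with first bases at -29 and 6 around its second start site, and none in the window of its first start site. SRM held 1 copy, at -199. The 9 other windows, of ODC1's first start, SMS, AMD1, SAT1, OAZ1, OAZ2 and MTAP, held none. The letters occurred in 7.26% of all 35116 windows, and 12.7% of the 9245 tested genes with an entry had them in at least 1 window. A match describes the sequence and does not show binding, and the absence of a match in a window of 300 bases says nothing about MYC at these genes.

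ODC1, the enzyme that commits ornithine to polyamine synthesis (ENSG00000115758, GRCh38 chromosome 2, 10439968 to 10448504, minus strand), was higher with AURKB shRNA and varied little within groups. It was at 454, 449 and 453 CPM in shAURKB libraries, against 327, 329 and 342 CPM in shGFP libraries. Every shAURKB library lay above every shGFP library, with a gap between the groups many times the spread inside either. The means were 452 ± 2.77 CPM in shAURKB and 333 ± 8.07 CPM in shGFP (SD, n = 3 each), a 1.36-fold rise with a log2 fold change of 0.44 ± 0.03 (SE; edgeR adjusted p = 0.000406). A larger absolute change than that of ODC1 was found in 19.7% of tested genes, so it combined a moderate change with a tight spread.

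Among the proteins that act on the decarboxylase, the antizyme genes did not move alike. OAZ1, the main antizyme gene (ENSG00000104904, chromosome 19, 2269509 to 2273490, plus strand), was at 268, 284 and 280.5 CPM in shAURKB, against 227, 229 and 237 CPM in shGFP. The groups did not overlap, and the rise was 1.20-fold (log2 fold change 0.26 ± 0.04 SE, edgeR adjusted p = 0.0045). JSRP1, which overlaps the upstream end of OAZ1 on the opposite strand, had 939, 876 and 897 reads in shAURKB, against 614, 583 and 785 in shGFP, and rose too (log2 fold change 0.49 ± 0.07 SE, edgeR adjusted p = 0.00317). Without a stated strand setting, reads in the shared stretch cannot be told apart, and their part in the rise of OAZ1 was not tested. OAZ1 had 2909 to 3056 reads in shAURKB libraries and 2359 to 2866 in shGFP libraries.

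OAZ2, the second antizyme gene (ENSG00000180304, chromosome 15, 64687573 to 64703281, minus strand), had a negative estimate that was not called. It was at 18.6, 25.8 and 25.2 CPM in shAURKB, against 26.1, 26.0 and 29.3 CPM in shGFP. The groups did not overlap, though replicates 2 and 3 of shAURKB lay just under the lowest shGFP value and replicate 1 lay well below them. The log2 fold change was -0.23 (95% interval -0.54 to 0.09, edgeR adjusted p = 0.265), and -0.09 without shAURKB replicate 1. AZIN1, which frees the decarboxylase from antizyme (ENSG00000155096, chromosome 8, 102826357 to 102893864, minus strand), was at 371, 368 and 384 CPM in shAURKB, against 365, 361 and 345 CPM in shGFP. Its groups were adjacent without overlapping, and the log2 fold change of 0.07 was not called (95% interval -0.02 to 0.16, edgeR adjusted p = 0.209). AZIN1-AS1 on the opposite strand held 18 to 30 reads in shAURKB and 21 to 40 in shGFP, against at least 3715 for AZIN1.

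AMD1 and the synthases supply and use the aminopropyl group. AMD1 (ENSG00000123505, chromosome 6, 110814621 to 110895713, plus strand) was at 176, 170.3 and 167 CPM in shAURKB, against 154, 166 and 169 CPM in shGFP. The groups overlapped, and the log2 fold change was 0.07 (95% interval -0.05 to 0.18, edgeR adjusted p = 0.36).

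SRM, the synthase of spermidine (ENSG00000116649, chromosome 1, 11054584 to 11060024, minus strand), rose the most of the 10 genes. It was at 152, 174 and 189 CPM in shAURKB, against 111, 119 and 111 CPM in shGFP. All shAURKB libraries were above all shGFP libraries, with a wider spread in shAURKB than for ODC1. The means were 172 ± 18.3 CPM in shAURKB and 114 ± 4.54 CPM in shGFP (SD, n = 3 each), a 1.51-fold rise (log2 fold change 0.60 ± 0.08 SE, edgeR adjusted p = 0.00341). The call was lost on log2(FPKM + 1) without a filter (0.53, limma adjusted p = 0.0605). SMS, the synthase of spermine (ENSG00000102172, chromosome X, 21940573 to 21994835, plus strand), was at 101, 107 and 107 CPM in shAURKB, against 99.5, 89.8 and 93.3 CPM in shGFP. Its groups did not overlap, but shAURKB replicate 1 and shGFP replicate 1 were nearly level. The log2 fold change of 0.16 was not called (95% interval 0.03 to 0.29 before adjustment, edgeR adjusted p = 0.0844).

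MTAP, which splits the methylthioadenosine left by the synthases (ENSG00000099810, chromosome 9, 21802543 to 21937651, plus strand), lay just over the threshold in the main edgeR fit. It was at 60.6, 54.8 and 62.0 CPM in shAURKB, against 51.1, 49.4 and 52.1 CPM in shGFP. The groups did not overlap, and the log2 fold change of 0.22 ± 0.07 (SE) was not called (edgeR adjusted p = 0.052). Only 1 of 17 alternatives called MTAP, the edgeR fit without shAURKB replicate 2 (0.27, adjusted p = 0.0403). Over the 17, DESeq2 and limma included, its adjusted p ran from 0.0403 to 0.388. The read-through locus ENSG00000264545, which starts in MTAP on the same strand, had 0, 56 and 0 reads in shAURKB and 0, 0 and 126 reads in shGFP. When these reads were added to MTAP, an alternative chosen after seeing the data, the log2 fold change was 0.17 (edgeR adjusted p = 0.248).

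MTAP lies beside CDKN2A in a stretch of chromosome 9 that is often deleted in T-cell leukaemia, and both genes had reads in every library. CDKN2A, a cell cycle inhibitor gene, was at 28.5, 29.4 and 30.2 CPM in shAURKB and 31.9, 28.8 and 35.3 CPM in shGFP, and was not called (log2 fold change -0.12, edgeR adjusted p = 0.355). Of 4 tested neighbours none was called higher (12.5% of all genes were) and 1 was called lower (10.9% of all genes were), CDKN2B, a related inhibitor gene. CDKN2B had 12, 17 and 9 reads in shAURKB and 25, 28 and 27 in shGFP (log2 fold change -1.03 ± 0.27 SE, edgeR adjusted p = 0.034). That call was lost without any 1 library other than shAURKB replicate 2 (adjusted p = 0.071 to 0.107) with the low-count filter off (0.0533) and with a replicate block (0.0507), with 0.025 to 0.322 as the range over the 14 alternatives that gave it an adjusted p. DESeq2 and both filtered FPKM settings gave none. The long noncoding CDKN2B-AS1 (-0.06) and KLHL9 (-0.18) were not called, and DMRTA1 and IFNE had 0 reads in all 6 libraries, which allows up to 3 counts, or 0.252 to 0.295 CPM of the unscaled total, per library, by counting error alone.

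SAT1 moved the other way from ODC1 and SRM. This acetyltransferase, which marks spermidine and spermine for breakdown or export (ENSG00000130066, chromosome X, 23783173 to 23786226, plus strand), was at 23.7, 26.2 and 27.0 CPM in shAURKB, against 37.9, 36.1 and 44.4 CPM in shGFP. All shAURKB libraries lay below all shGFP libraries, and the highest shGFP value was in replicate 3. The means were 25.7 ± 1.72 CPM in shAURKB and 39.5 ± 4.34 CPM in shGFP (SD, n = 3 each), which left 65.0% of the control level. The log2 fold change was -0.62 ± 0.10 (SE; edgeR adjusted p = 0.00615), close in size to that of SRM. Its estimate was -0.53 without shGFP replicate 3. Reads of SAT1 were counted per gene, so its known alternative splice form with a premature stop is not separated from the coding form.

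SMOX, the oxidase that turns spermine back into spermidine (ENSG00000088826, chromosome 20, 4120980 to 4187747, plus strand), was the scarcest of the 10. It had 39, 29 and 31 reads in shAURKB and 41, 27 and 36 reads in shGFP, or 3.41, 2.83 and 2.94 CPM in shAURKB against 3.87, 2.62 and 2.97 CPM in shGFP. The groups overlapped, and the log2 fold change of -0.04 had a 95% interval of -0.51 to 0.43 (edgeR adjusted p = 0.915), so a change as large as the rise of OAZ1 or the estimate of MTAP was not detectable at this depth. Its sign turned without shGFP replicate 1 (0.13) or shAURKB replicate 2 (0.02).

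**Figure D2:**
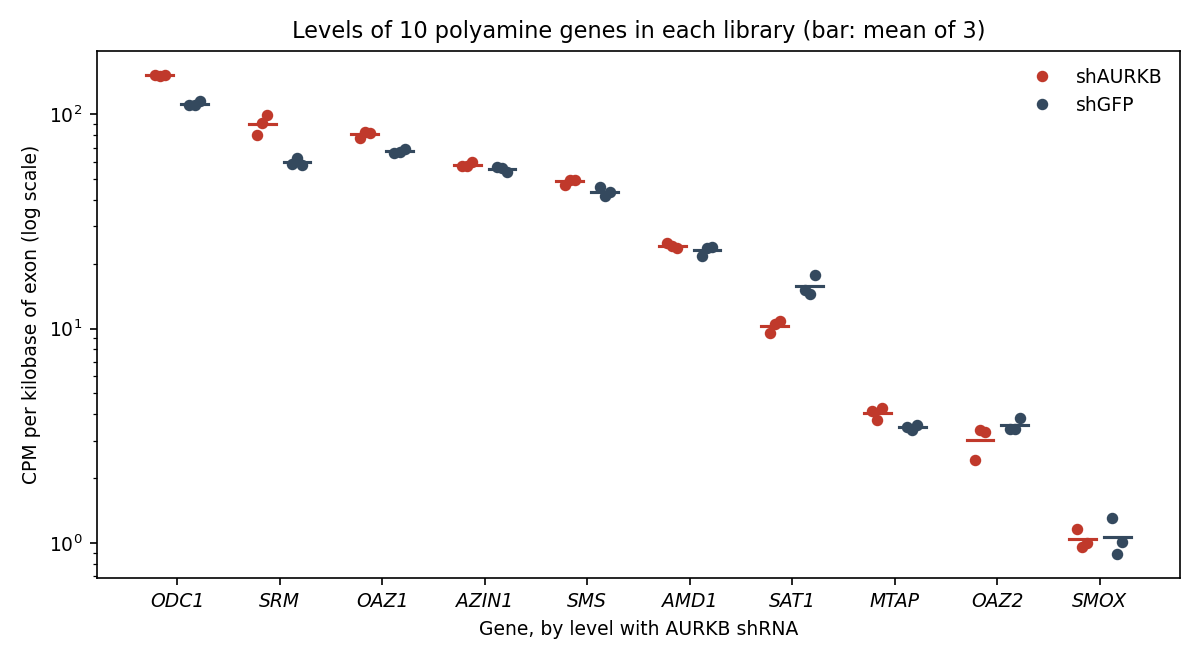
Level of each of the 10 genes in every library, in CPM per kilobase of exon on a log axis, with shAURKB left of shGFP and bars at the mean of 3. ODC1, SRM and OAZ1 lie higher and SAT1 lower in all 3 shAURKB libraries, and MTAP, OAZ2 and SMOX are the lowest of the 10 in both groups.

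Levels were compared between genes as CPM per kilobase of exon, with exon bases of GENCODE 29 counted once. Exon bases of all annotated transcripts were counted, used by these cells or not. They made up 3436 of the 3982 bases that OAZ1 spans, 2498 of 3054 for SAT1 and 2968 of 8537 for ODC1. The order below depends on this choice of length, and which exons are used was not tested. ODC1 stood highest, at 152 ± 0.933 in shAURKB and 112 ± 2.72 in shGFP. SRM and OAZ1 followed in shAURKB at 90.4 ± 9.62 and 80.7 ± 2.48, where their libraries overlapped. In shGFP the order of these genes was the other way, with SRM at 59.8 ± 2.39 below OAZ1 at 67.2 ± 1.54 and no overlap (SD, n = 3 each). AZIN1 (58.2 in shAURKB, 55.5 in shGFP), SMS (48.7 and 43.6), AMD1 (24.3 and 23.2) and SAT1 (10.3 and 15.8) came next in both groups, each apart from its neighbours. MTAP (4.05 in shAURKB, 3.48 in shGFP) and OAZ2 (3.03 and 3.54) overlapped in shGFP, and SMOX was last at 1.04 and 1.07. The locus of AMD1 in the deposited table starts further upstream than in GENCODE 29, so its level per kilobase is approximate. That of MTAP is approximate too, since the length behind its deposited FPKM differs from the sum of its GENCODE 29 exons, as given below.

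The deposited FPKM gave another order, and the gene lengths behind them differ from the exon bases used here. Over 9442 genes with at least 100 reads in every library, the length implied by count and FPKM was within 1% of the sum of all distinct annotated exons for 87.0%, a sum in which overlapping versions of an exon are each counted. It was within 1% of the exon bases counted once for 8.7%, and its median was 1.55 times that length. For MTAP the implied length was 20833 bases, against 24829 for the sum of distinct exons, and for AMD1 16547 against 16352. For SAT1 the implied length of 5834 bases exceeded the 3054 bases the gene spans. OAZ1 was the most affected of the 10, with 9724 bases implied and 3436 exon bases, a factor of 2.83, and ODC1 the least, with 3756 and 2968 bases, a factor of 1.26. By deposited FPKM, OAZ1 therefore ranked 5 of 10 in both groups, with means of 27.9 FPKM in shAURKB and 24.1 FPKM in shGFP, against rank 3 in shAURKB and rank 2 in shGFP per kilobase of exon. Fold changes of a gene between groups that were fitted on counts do not use these lengths and are untouched by this. In the alternatives on log2(FPKM + 1) or log2(FPKM + 0.1), the added constant lets length affect the estimate, and no TMM scaling was applied. For MTAP these gave 0.12 and 0.16, both with the filter, against 0.22 in the main fit. For ODC1 they gave 0.387 and 0.390, against 0.442. How far the constant and the missing scaling each moved these estimates was not tested.

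**Figure D3:**
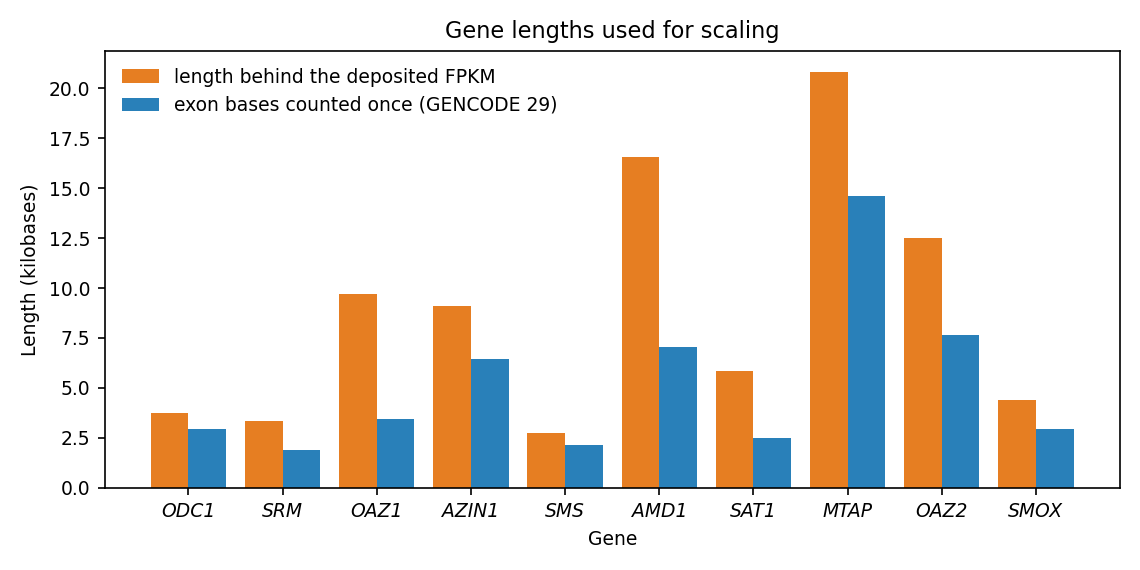
Length in kilobases behind the deposited FPKM of each gene, beside its exon bases counted once in GENCODE 29, with genes ordered by level in shAURKB. The bars differ most in proportion for OAZ1 (9724 against 3436 bases), and for all 10 genes the length behind the FPKM is the longer.

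Ratios of transcripts inside a library do not depend on scaling between libraries. Their size does depend on the gene lengths used, while the difference in log2 ratio between groups does not. From mean deposited FPKM, the ratio of ODC1 to OAZ1 was 4.22 in shAURKB and 3.73 in shGFP. In CPM per kilobase of exon, it was 1.97, 1.83 and 1.87 in shAURKB libraries, against 1.67, 1.66 and 1.67 in shGFP libraries. The control values were almost identical, and all 3 shAURKB values lay above them, with a difference in log2 ratio of 0.18. Both genes rose, with log2 fold changes of 0.44 for ODC1 and 0.26 for OAZ1. SRM per SMS was 1.71, 1.84 and 2.01 in shAURKB, against 1.27, 1.51 and 1.35 in shGFP, a difference in log2 ratio of 0.43. ODC1 per SAT1 was 16.1, 14.4 and 14.1 in shAURKB, against 7.26, 7.67 and 6.49 in shGFP, and this ratio was 2.09-fold higher in shAURKB (log2 difference 1.06). For each of the 3 ratios the groups did not overlap, and the two-sided exact permutation p was 0.1, also after adjustment over the 3, which is the smallest that 3 against 3 libraries allow. For ODC1 per SAT1 this outcome was fixed beforehand and adds no further result. ODC1 was higher and SAT1 lower in every shAURKB library than in any shGFP library, so their ratio had to separate. These are ratios of mRNA and not of enzyme amounts.

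**Figure D4:**
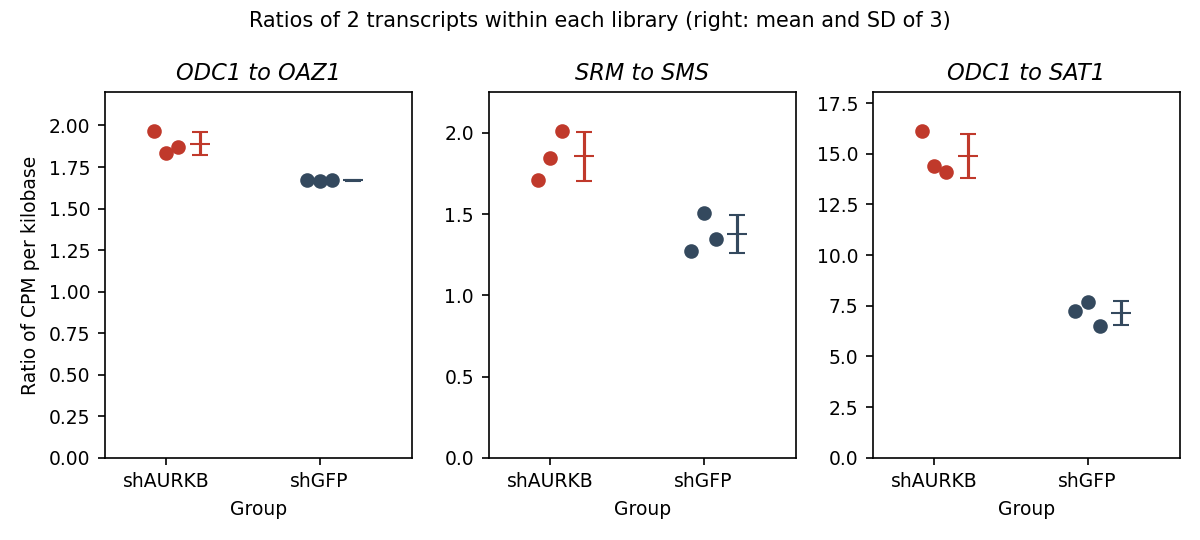
Ratios of ODC1 to OAZ1, SRM to SMS and ODC1 to SAT1, each in CPM per kilobase of exon within a library, with the mean and SD of 3 to the right of the points. In every panel the 3 shAURKB libraries lie above the 3 shGFP libraries, from 1.89 against 1.67 on average for ODC1 to OAZ1 up to 14.9 against 7.14 for ODC1 to SAT1.

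Genes around the 10 were looked up in the same fit, in lists of ornithine supply, further regulators and breakdown enzymes, hypusination, the methionine cycle, salvage and transport. Of 40 listed, 29 were tested, 2 were called higher (12.5% of all genes), 3 lower (10.9% of all genes) and 24 were not called. In either direction, 23.3% of all tested genes were called. The median log2 fold change of the 29 was -0.00, the same as that of all genes to this precision.

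In the supply of ornithine, 1 of 4 tested genes rose and 1 fell. OAT, the mitochondrial aminotransferase that joins ornithine with glutamate metabolism, was at 53.9, 49.5 and 49.97 CPM in shAURKB, against 40.2, 42.2 and 37.8 CPM in shGFP, without overlap (log2 fold change 0.35 ± 0.07 SE, edgeR adjusted p = 0.0124). On log2(FPKM + 1) without a filter the call was lost (limma adjusted p = 0.088). SLC7A1, the importer of arginine and ornithine, was at 298, 289 and 294 CPM in shAURKB, against 367, 368 and 388 CPM in shGFP, and fell (log2 fold change -0.35 ± 0.04 SE, edgeR adjusted p = 0.00126). The arginase that makes ornithine was represented by ARG2 (log2 fold change 0.14, edgeR adjusted p = 0.332), since ARG1 had at most 3 reads in a library and was not tested, and the mitochondrial ornithine carrier SLC25A15 was at 0.15 (edgeR adjusted p = 0.155).

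Among transport genes, 1 of 5 tested rose and 1 fell. SLC3A2, the heavy chain shared by several amino acid exchangers and also linked to polyamine export, was at 127, 121 and 123 CPM in shAURKB, against 162, 161 and 159 CPM in shGFP, and fell (log2 fold change -0.38 ± 0.04 SE, edgeR adjusted p = 0.00144). ATP13A3, a transporter of polyamines into the cell, was at 316, 262 and 331 CPM in shAURKB, against 261.2, 229 and 225 CPM in shGFP. Its groups were separated by less than 1 CPM, and it rose by a log2 fold change of 0.34 ± 0.10 (SE; edgeR adjusted p = 0.0427). It was no longer called without any of shAURKB replicates 1 and 3 and shGFP replicates 2 and 3 (adjusted p = 0.113 to 0.116), with upper-quartile scaling (0.074) and on FPKM (0.107 to 0.445), with 0.0117 to 0.445 as the range over the 17 alternatives with a test. Its relative ATP13A2, which releases polyamines from lysosomes, was at -0.02 (edgeR adjusted p = 0.888).

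In the methionine cycle, which provides S-adenosylmethionine to AMD1, 1 of 7 tested genes was called lower and none was called higher. MTR, the methionine synthase, was at 83.7, 82.1 and 84.8 CPM in shAURKB, against 98.0, 103 and 99.9 CPM in shGFP, without overlap (log2 fold change -0.26 ± 0.05 SE, edgeR adjusted p = 0.00848). AHCY, of the same list, was at 381 to 396 CPM in shAURKB and 320 to 368 CPM in shGFP, without overlap. Its log2 fold change of 0.15 was not called (95% interval 0.02 to 0.29, edgeR adjusted p = 0.0913, unadjusted p = 0.0287). MAT2A, which makes S-adenosylmethionine, was at 661 to 740 CPM in shAURKB and 671 to 702 CPM in shGFP, which overlap, with a log2 fold change of -0.00 (95% interval -0.12 to 0.11, edgeR adjusted p = 0.963). None of 5 salvage genes downstream of MTAP was called (edgeR; smallest adjusted p 0.245, for APIP at 0.14, and none had an unadjusted p below 0.05). Over the alternatives, DESeq2 and limma included, the smallest adjusted p of APIP was 0.155.

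None of the 5 hypusination genes was called either. Hypusine is made on the translation factor EIF5A from spermidine by DHPS and DOHH. The smallest p was that of DOHH, at 28.5, 32.7 and 35.3 CPM in shAURKB and 26.5, 29.3 and 24.5 CPM in shGFP (log2 fold change 0.26, edgeR adjusted p = 0.121, unadjusted p = 0.0427), the only 1 of the 5 with an unadjusted p below 0.05. Over the alternatives, DESeq2 and limma included, its smallest adjusted p was 0.0675. EIF5A was at 0.13 (95% interval -0.02 to 0.28, edgeR adjusted p = 0.184), and its near-identical copy EIF5AL1 can share its reads. DHPS ran from 28.7 to 50.9 CPM in shAURKB and 32.6 to 54.1 CPM in shGFP, and its groups overlapped (log2 fold change -0.34, edgeR adjusted p = 0.408).

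None of the 3 tested further regulators and breakdown enzymes was called. AZIN2, a second antizyme inhibitor, had a log2 fold change of -0.61 (95% interval -1.14 to -0.08, edgeR adjusted p = 0.0938). It passed in 1 of 17 alternatives, the edgeR fit without shAURKB replicate 2 (adjusted p = 0.0469). Over the 17, DESeq2 and limma included, its adjusted p ran from 0.0469 to 0.542. It was at 6.92, 9.56 and 5.69 CPM in shAURKB, against 13.6, 9.41 and 10.7 CPM in shGFP, where replicate 2 of shAURKB crossed replicate 2 of shGFP. SAT2, a relative of SAT1, was at 1.84, 2.34 and 2.47 CPM in shAURKB and 3.40, 3.40 and 2.07 CPM in shGFP (-0.41, edgeR adjusted p = 0.29). The testis-type antizyme OAZ3 and the oxidase PAOX had at most 16 and 10 reads in a library and were not tested.

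**Figure D5:**
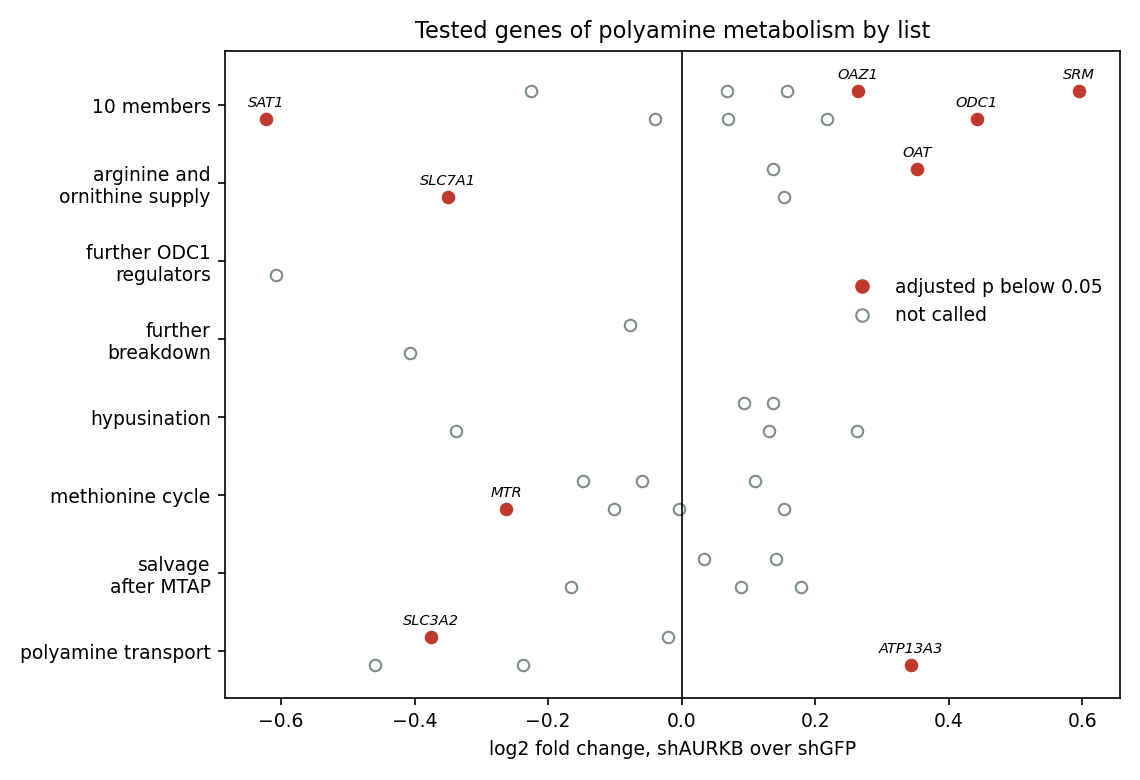
Log2 fold change of shAURKB over shGFP for every tested gene of the 10 and of 7 further lists, 1 point per gene. Filled points have an adjusted p below 0.05 and carry their names, 4 among the 10 members and 5 among the 29 further genes.

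The genes whose profile over the 6 libraries was most like that of ODC1 were CCT2, RMND5A and PSMC2, by the root mean square difference of log2 CPM centred on the shGFP mean (0.0210, 0.0224 and 0.0230) among 9448 genes with at least 10 CPM on average. Their log2 fold changes were 0.45, 0.43 and 0.43. For SRM they were CDKN1A, CCDC6 and TOMM34 (0.0515, 0.0578 and 0.0585), with log2 fold changes of 0.62, 0.62 and 0.57. With 6 libraries in 2 groups, any gene with a similar shift and spread scores as alike.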

How the data were processed

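RNA from 3 shAURKB and 3 shGFP cultures of CUTLL1 was sequenced, with groups and replicate numbers taken from sample titles. The authors deposited whole-number counts and FPKM per Ensembl gene, per the file headers. HISAT2 2.0.4, StringTie 1.3.0 and edgeR on GRCh38 are named, per the submitters' processing notes. The strand setting, the counting rule and each tool's role are not stated in those notes or the labels. Low counts were removed by filterByExpr (at least 10 counts, 15 in total), which left 14818 genes, and TMM scaling followed. The two-sided quasi-likelihood test was that of edgeR 4.0.16 (R 4.3.3), group being its only term. Adjusted p-values are Benjamini-Hochberg over these genes, called below 0.05. Intervals (95%) are unadjusted and use the fit's degrees of freedom.

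Levels per kilobase divide TMM-scaled CPM by the exon bases of GENCODE 29. Replicates differed beyond sampling noise (chi-square per degree of freedom 6.33 to 7.27), so none was a copy. Whether replicates were separate cultures is known only from the series' wording, and floors (3 counts) cover counting error only.

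The genes and lists were chosen with earlier results of these data known. Further genes are named if neighbours of MTAP, or if among the 2 called ones with the largest change per list, or else with the smallest p. ARG2, SLC25A15, ATP13A2, MAT2A, AHCY, EIF5A, EIF5AL1, DHPS, and the untested genes were added after their values were seen. As alternatives, scaling was changed to RLE or upper quartile, the tool to DESeq2 1.42.0 or limma 3.58.1 (voom), and the filter was moved or dropped. Further ones added a replicate block, omitted 1 library at a time, or used limma on FPKM (log2, pseudocount 1 or 0.1) without TMM scaling. A last alternative, chosen after seeing the data, added the read-through reads to MTAP.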

Additional observations from a re-analysis of the deposited data

How the results depend on the processing

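ODC1, OAZ1 and SAT1 kept their direction and call under all 17 alternatives with a test, and SRM under 16 of 17, the exception being log2(FPKM + 1) without a filter (log2 fold change 0.53, adjusted p = 0.0605). That setting tested every gene of the table and called 607 genes higher and 760 lower, against 1847 and 1609 by the edgeR test. The replicate block called 1027 genes lower and changed no call among the 10 genes. Same-numbered libraries did not deviate together (correlations -0.09, -0.03 and -0.04), which cannot show whether they were handled as pairs. Leaving out 1 library, which leaves fewer samples, called 998 to 1056 lower. MTAP ran from 0.19 to 0.27 and SMOX from -0.15 to 0.13 when 1 library was left out, with MTAP called and SMOX positive in the cases named above; the cause was not tested. The other not-called members kept their direction under the same 17 alternatives. Among these, the alternative that added read-through reads to MTAP changed the counts of no other member and is no check on those genes. Upper-quartile scaling moved the median gene by -0.054, and centring on genes of at least 10 CPM, added after seeing the data, lowered each estimate by 0.0432; neither turned the sign of any of the 10 genes. Depth limits SMOX most, at 27 to 41 reads per library.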
